A study of Mus musculus with 4 samples.

Results

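The 10 genes described here encode lysozyme M (*Lyz2*), the macrophage surface marker F4/80 (*Adgre1*), the endosomal glycoprotein macrosialin (*Cd68*), the efferocytosis receptor kinases *Mertk* and *Axl*, the secreted protein AIM (*Cd5l*), the scavenger receptors *Marco* and *Msr1*, the mannose receptor (*Mrc1*) and the lipopolysaccharide co-receptor *Cd14*. They were listed by symbol, 10 of the 35798 genes named in a table of counts from sorted NK cells, and they were chosen with their difference between the groups already known. Their values between wild-type and TNFR2 KO are therefore a description, and nothing is inferred from whether they pass a threshold on it.

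Wild-type NK cells (CD45.1) and NK cells from TNFR2-deficient mice (CD45.2, germline loss of *Tnfrsf1b*) were transferred together into NSG mice, which lack T, B and NK cells of their own and keep myeloid cells. All hosts received murine cytomegalovirus (MCMV) a day later, so that there was no uninfected group. Ly49H+ cells of each CD45 allele were sorted from spleens taken on D3.5 of the infection, after NK cells had been enriched from the spleen by negative selection (per the labels). There were 2 wild-type and 2 TNFR2 KO libraries, and each came from the pooled spleens of 3 NSG mice, with the wild-type and TNFR2 KO libraries of 1 number taken from the same pool according to the labels, which do not say outright that the pools held different mice. The genotype, the CD45 allele and the gate used in the sort therefore differ between the same libraries, and their effects cannot be told apart. NSG mice are on a NOD background, which carries the CD45.1 allele, so host leukocytes and wild-type donor cells share that allele.

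Macrophages take up dead cells, bacteria and modified lipoproteins through several receptor families. In efferocytosis, MERTK and AXL bind phosphatidylserine on a dying cell through bridging proteins, GAS6 for both and protein S for MERTK. Scavenger receptors such as MARCO and MSR1 bind polyanionic ligands directly. In the spleen, these genes are best known from red pulp, marginal zone and other resident macrophages. Most of them are not part of the usual description of an NK cell.

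Totals ran from 32713054 to 39543464 estimated counts per library. *Tnfrsf1b*, the targeted gene, was at 264.7 and 268.6 CPM (counts scaled to library size with TMM factors) in wild-type and at 55.1 and 58.6 CPM in the TNFR2 KO libraries (log2-fold change -2.23). All 22 NK cell markers examined were detected in all 4 libraries, with a summed level of 18044.4 to 18137.1 CPM in wild-type and 33150.6 to 33461.3 CPM in TNFR2 KO, and *Klra8*, which encodes Ly49H itself, was at 313.3 and 315.9 CPM in wild-type and 762.1 and 725.8 CPM in TNFR2 KO. Transcripts of NK cells were thus present in every library, which does not show how pure the sorted cells were. The 20 macrophage markers examined, none of them among the 10 genes, were also all detected, summing to 2324.5 and 2306.3 CPM in wild-type and to 270.4 and 272.4 CPM in TNFR2 KO. Their part in the values of the 10 genes was not tested. In bulk libraries, fewer cells of a type and less RNA per cell cannot be told apart.

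All 10 genes passed the filter on low counts, and for all 10 both TNFR2 KO libraries lay below both wild-type libraries, as they did for 37.7% of the 13822 genes tested. Genes outside the 10 were called lower where edgeR's quasi-likelihood test gave a log2-fold change under -1 and a p under 0.05 after Benjamini-Hochberg adjustment, thresholds that 11.8% of all genes tested passed. The 10 genes were chosen on this same contrast, so their values are given without a p and nothing is read from the non-overlap. The 10 genes summed to 1296.3 and 1290.9 CPM in wild-type replicates 1 and 2 and to 201.2 and 196.9 CPM in TNFR2 KO replicates 1 and 2. *Lyz2* alone made up 59.5% and 60.2% of that sum in wild-type and 56.7% and 56.1% in TNFR2 KO. The median log2-fold change of the 10 genes was -2.98, against -0.00279 over all genes tested.

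**Figure D1:**
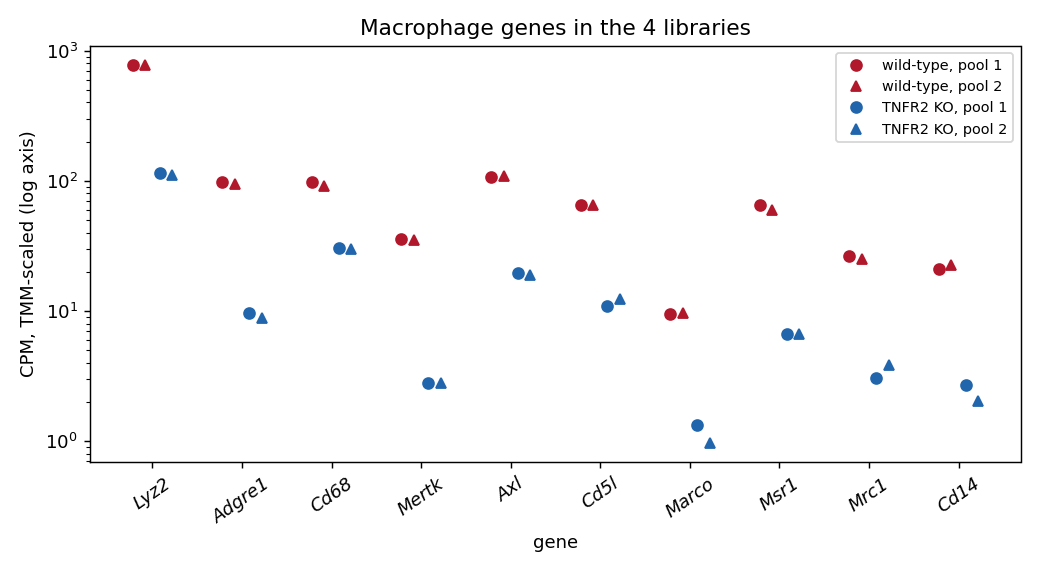
Level of each of the 10 genes in each library, as TMM-scaled CPM on a log axis; red points are wild-type, blue points TNFR2 KO, circles pool 1 and triangles pool 2. For every gene the 2 red points lie above the 2 blue points, from *Lyz2* at 771.5 and 777.7 against 114.0 and 110.4 CPM down to *Marco* at 9.54 and 9.68 against 1.34 and 0.968 CPM.

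*Lyz2*, on chromosome 10 at 117277331 to 117282321 of GRCm38 (minus strand), encodes the lysozyme of macrophages and neutrophils, which cuts bacterial cell walls. It was at 771.5 and 777.7 CPM in wild-type and at 114.0 and 110.4 CPM in TNFR2 KO, or 774.6 ± 4.41 against 112.2 ± 2.59 (mean ± SD, n = 2 each). The log2-fold change was -2.79 with a standard error of 0.0278, and the level was 6.77-fold lower in TNFR2 KO in pool 1 and 7.05-fold lower in pool 2. The duplicates of a group nearly coincided.

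*Lyz2* has a near-identical neighbour, *Lyz1*, the lysozyme of Paneth cells, at 117287797 to 117292868 on the same strand, and 32.8% of the 31-base stretches of *Lyz2* transcripts also occur in *Lyz1*. The coding sequences, both of 444 bases, differ at 22 positions (95.0% identity). The first 120 coding bases of each are shown because they hold 11 of these differences, written in capitals, by which reads of the pair can be told apart (reference transcripts, GENCODE M21).
Lyz2: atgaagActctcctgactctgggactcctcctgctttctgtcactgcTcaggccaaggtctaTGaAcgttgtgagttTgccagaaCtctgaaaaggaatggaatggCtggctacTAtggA
Lyz1: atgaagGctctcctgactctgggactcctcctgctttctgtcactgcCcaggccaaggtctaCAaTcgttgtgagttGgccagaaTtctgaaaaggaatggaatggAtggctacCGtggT
The counts assigned to *Lyz1* were 18 and 32 in wild-type and 1 and 4 in TNFR2 KO, against 29260 and 28672 and 4411 and 3536 for *Lyz2*. *Lyz1* thus took between 0.0227% and 0.113% of the counts of the pair, and with both summed the log2-fold change was again -2.79.

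*Adgre1*, the gene of F4/80, an adhesion G protein-coupled receptor used to identify mouse macrophages, lies on chromosome 17 at 57358691 to 57483527 (plus strand). It was at 97.1 and 93.9 CPM in wild-type and at 9.69 and 8.83 CPM in TNFR2 KO. This log2-fold change of -3.36 (standard error 0.0576) was the second largest among the 10 genes, and the level in TNFR2 KO was 9.7% of that in wild-type. Of its relatives, *Adgre4*, a receptor of macrophages and monocytes, fell from 56.8 and 51.0 to 4.6 and 4.46 CPM (log2-fold change -3.57, edgeR adjusted p = 2.92e-12). *Adgre5*, which encodes CD97 and is widely expressed in leukocytes, was at 625.1 and 620.5 CPM in wild-type and 721.3 and 748.4 CPM in TNFR2 KO. Its log2-fold change of 0.24 did not reach the fold threshold and became -0.33 when libraries were scaled on NK lineage genes.

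*Cd68*, on chromosome 11 at 69664213 to 69666153 (minus strand), encodes a glycoprotein of late endosomes and lysosomes that belongs to the LAMP family. It was at 98.6 and 91.7 CPM in wild-type and at 30.5 and 30.0 CPM in TNFR2 KO, or 95.2 ± 4.84 against 30.2 ± 0.301 (n = 2 each). Of the 10 genes it had the smallest difference, with a log2-fold change of -1.65 (standard error 0.0487) and 31.8% of the wild-type level left in TNFR2 KO. Wild-type *Cd68* and *Adgre1* were within a few CPM of each other, yet in TNFR2 KO the former was at about 30 and the latter under 10 CPM. Its widely expressed relative *Lamp1* fell from 296.0 and 284.6 to 119.1 and 118.8 CPM (log2-fold change -1.29, edgeR adjusted p = 4.04e-12). *Lamp2* was at 166.2 and 163.2 against 100.5 and 97.2 CPM, a log2-fold change of -0.74 that did not reach the fold threshold. With scaling on NK lineage genes *Lamp2* became -1.31 and was called lower.

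*Mertk* and *Axl* are both receptor tyrosine kinases of the TAM family, through which phagocytes recognise dying cells. *Mertk*, on chromosome 2 at 128698956 to 128802894 (plus strand), was at 35.7 and 35.3 CPM in wild-type and at 2.79 and 2.78 CPM in TNFR2 KO, 7.85% of the wild-type level. It overlaps an antisense gene, *Gm14011*, and the sources do not state whether the counting used strand. The log2-fold change of *Mertk*, -3.67 (standard error 0.0849), was the largest of the 10 genes, and it was lower by 12.8-fold in pool 1 and by 12.7-fold in pool 2. *Axl*, on chromosome 7 at 25757273 to 25788705 (minus strand), was at 106.2 and 109.5 CPM in wild-type and at 19.5 and 19.0 CPM in TNFR2 KO. Its log2-fold change was -2.48 (standard error 0.0461), which left 17.9% of the wild-type level. The fold between genotypes was larger for *Mertk* than for *Axl* in either pool.

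The third TAM kinase, *Tyro3*, was at 12.6 and 12.2 CPM in wild-type and at 15.9 and 14.4 CPM in TNFR2 KO. Its log2-fold change of 0.29 did not reach the fold threshold and became -0.28 with scaling on NK lineage genes. Both TAM ligands were scarce and called lower: *Gas6* was at 2.32 and 2.2 against 0.698 and 0.593 CPM, a log2-fold change of -1.8 (edgeR adjusted p = 0.000216). *Pros1*, which encodes protein S, was at 6.93 and 6.46 against 1.99 and 2.47 CPM, a log2-fold change of -1.59 (edgeR adjusted p = 6.4e-06). Of this receptor and ligand family, *Tyro3* was the gene whose wild-type libraries did not lie above its TNFR2 KO libraries.

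The 3 genes with a scavenger receptor cysteine-rich or collagen-like structure were all lower in TNFR2 KO. *Msr1*, which encodes the class A scavenger receptor for modified lipoproteins and lies on chromosome 8 at 39581685 to 39642673 (minus strand), was at 65.3 and 59.8 CPM in wild-type and 6.67 and 6.71 CPM in TNFR2 KO (log2-fold change -3.22, standard error 0.0705). *Marco*, a receptor for bacteria on marginal zone macrophages that lies on chromosome 1 at 120474538 to 120505024 (minus strand), was at 9.54 and 9.68 CPM in wild-type and 1.34 and 0.968 CPM in TNFR2 KO (log2-fold change -3.04, standard error 0.177). *Cd5l*, a secreted protein of tissue macrophages encoded on chromosome 3 at 87357881 to 87371073 (plus strand), was at 64.9 and 65.6 CPM in wild-type and 11.0 and 12.3 CPM in TNFR2 KO (log2-fold change -2.49, standard error 0.0614). *Marco* rested on 52 and 31 counts in TNFR2 KO and had the widest error of the 10 genes. Despite its name, *Cd5l* resembles the lymphocyte receptors CD5 and CD6 only in its domain type, and *Cd5* (110.4 and 114.9 against 90.3 and 95.7 CPM) and *Cd6* (120.9 and 127.1 against 84.2 and 82.4 CPM) had log2-fold changes of -0.28 and -0.57, short of the fold threshold. With scaling on NK lineage genes *Cd5* became -0.85, still short of it, and *Cd6* became -1.14 and was called lower.

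*Mrc1*, which encodes the mannose receptor CD206 and lies on chromosome 2 at 14229392 to 14332057 (plus strand), was at 26.6 and 25.1 CPM in wild-type and at 3.05 and 3.84 CPM in TNFR2 KO (log2-fold change -2.91, standard error 0.111). *Cd14*, which hands lipopolysaccharide to TLR4 and MD-2 and lies on chromosome 18 at 36725067 to 36726798 (minus strand), was at 21.0 and 22.6 CPM in wild-type and 2.71 and 2.03 CPM in TNFR2 KO (log2-fold change -3.18, standard error 0.131). Both genes were low in both TNFR2 KO libraries. The fold between genotypes was 8.7 and 6.53 for *Mrc1* and 7.72 and 11.1 for *Cd14* in pools 1 and 2. In TNFR2 KO these rest on 118 and 123 counts of *Mrc1* and 105 and 65 of *Cd14*. Whether the fold differed between the pools was not tested.

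**Figure D2:**
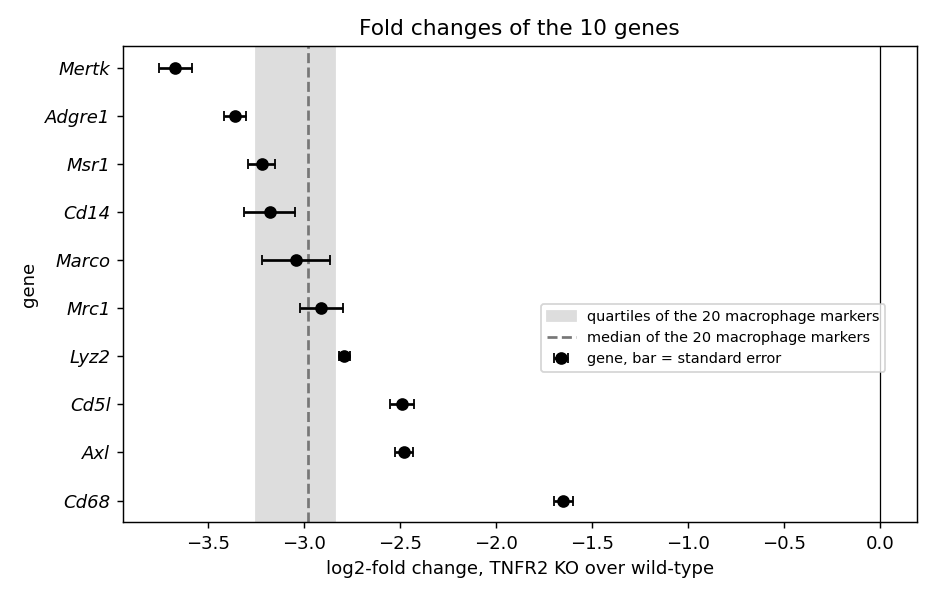
Log2-fold change (TNFR2 KO over wild-type) of each of the 10 genes, with a standard error derived from the edgeR test. The dashed line is the median and the grey band the quartiles of the 20 macrophage markers. *Mertk* at -3.67 and *Cd68* at -1.65 are the extremes, and *Msr1*, *Cd14*, *Marco* and *Mrc1* lie within the grey band.

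The 20 macrophage markers, among them *Csf1r*, the receptor for macrophage colony-stimulating factor, the pore-forming *Mpeg1* and the inhibitory receptor *Sirpa*, were all called lower. Their median log2-fold change was -2.98 and the quartiles were -3.25 and -2.84. Of the 10 genes, 4 lay within these quartiles and 6 outside, and by definition quartiles leave some of the markers themselves outside. *Cd68* lay 1.33 above the markers' median on the log2 scale, *Axl* 0.5, *Cd5l* 0.49 and *Lyz2* 0.19 above it. *Mertk* and *Adgre1* differed from it by -0.69 and -0.38. Set against the summed level of the 20 markers in the same library, *Cd68* was at 4.24% and 3.98% in wild-type and at 11.3% and 11.0% in TNFR2 KO, and *Lyz2* at 33.2% and 33.7% against 42.2% and 40.5%. *Mertk* was at 1.53% in both wild-type libraries and at 1.03% and 1.02% in TNFR2 KO. Relative to the markers, *Axl* and *Cd5l*, like *Cd68* and *Lyz2*, were higher in both TNFR2 KO libraries, and *Adgre1* and *Msr1*, like *Mertk*, lower. For *Msr1* the gap was small, at 2.81% and 2.59% in wild-type against 2.47% and 2.46% in TNFR2 KO. The share of all genes that separate in this way was not computed, so nothing is read from the separation. These percentages rest on the values by which the genes were chosen, so they are a description and nothing is inferred from them. The markers were also chosen with results known, and *Mpeg1* alone made up 637.7 of their 2324.5 CPM in wild-type replicate 1.

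**Figure D3:**
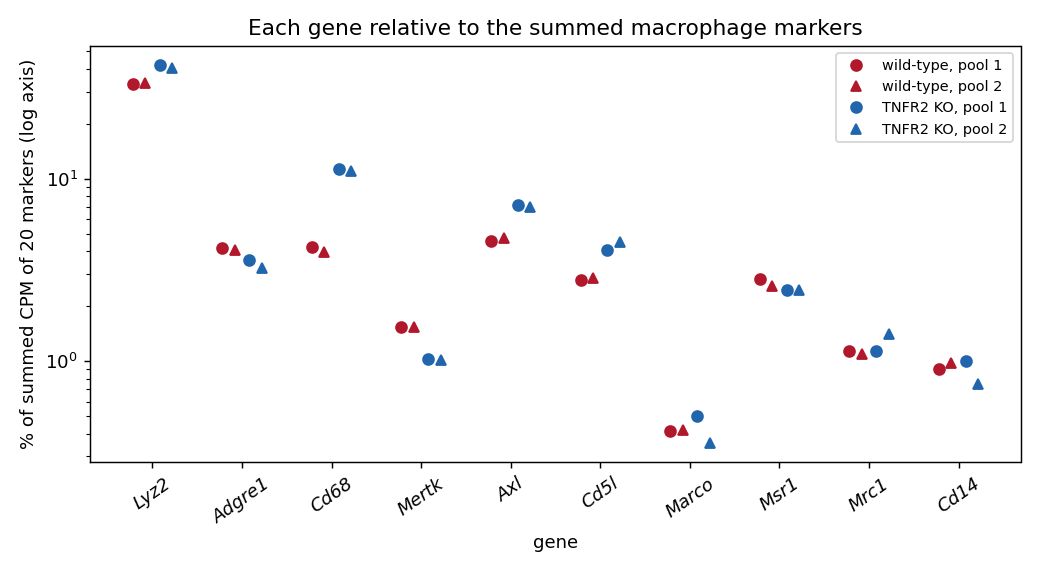
Level of each gene as a percentage of the summed CPM of the 20 macrophage markers in the same library (log axis); red is wild-type, blue TNFR2 KO, circles pool 1 and triangles pool 2. *Cd68*, *Lyz2*, *Axl* and *Cd5l* are higher in both blue points than in both red points, and *Mertk*, *Adgre1* and *Msr1* lower.

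Markers of other cells were examined in the same libraries, and their part in the result was likewise not tested. All 14 neutrophil markers were called lower, with a summed level of 879.5 and 895.7 CPM in wild-type and 97.5 and 93.6 CPM in TNFR2 KO, and so were all 10 mast cell or basophil markers tested, with 1299.7 and 1293.4 against 42.9 and 42.4 CPM. Of the dendritic cell markers 6 of 10 were called lower, with sums of 1762.3 and 1799.0 against 155.0 and 153.9 CPM. Most of these sums came from *Cd74* and the MHC class II genes *H2-Aa*, *H2-Ab1* and *H2-Eb1*. *Flt3*, *Zbtb46*, *Xcr1* and *Siglech* were not called and were at 2.93 CPM or less in every library. Of the erythroid markers 8 of 9 were called lower, with 279.8 and 275.0 against 57.0 and 60.6 CPM. The summed levels of the next lists did not follow their counts of calls. Of the monocyte markers 6 of 9 were called lower, but their sum was 1068.7 and 1022.5 CPM in wild-type and 1082.0 and 1069.7 CPM in TNFR2 KO. Most of that sum came from *Ccr2* (403.5 and 384.0 against 686.6 and 669.7 CPM) and *Ly6c2* (267.6 and 255.8 against 312.4 and 314.8 CPM). Neither was called, and the other 7 monocyte markers all had negative log2-fold changes. Of the stromal or endothelial markers 4 of 7 were called lower, but their sum was 117.4 and 122.6 CPM in wild-type and 139.1 and 137.4 CPM in TNFR2 KO. Most of it came from *Pecam1*, which was not called, at 105.4 and 110.3 against 134.3 and 133.6 CPM. B cell markers summed to 40.1 and 41.3 against 50.6 and 48.1 CPM, and T cell markers to 1453.6 and 1442.9 against 1246.4 and 1263.8 CPM, with medians of -0.16 and -0.26. Among the NK cell markers 7 of 22 were called higher and none lower, with 1.56% of all genes called higher. *Klrb1c*, the gene of NK1.1, rose from 185.7 and 184.8 to 516.2 and 526.7 CPM, a log2-fold change of 1.49 (edgeR adjusted p = 2.97e-13) that fell short of the fold threshold at 0.92 with scaling on NK lineage genes.

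Other scavenger receptors were considered next, from a list of 20 genes that leaves out the members. Of the 15 tested, 10 were called lower and none higher (66.7%, against 11.8% of all genes), and the median log2-fold change was -1.7. *Lrp1*, an endocytic receptor for apolipoprotein E and protease complexes, fell from 103.4 and 97.4 to 10.5 and 11.8 CPM (log2-fold change -3.18, edgeR adjusted p = 7.57e-13), and *Cxcl16*, a membrane-bound chemokine that also binds oxidised lipoprotein, from 8.62 and 9.87 to 0.698 and 0.78 CPM (log2-fold change -3.64, edgeR adjusted p = 6.55e-09). *Olr1*, the receptor LOX-1, was called lower at a level of 1.66 and 1.3 against 0.0517 and 0.187 CPM. The 2 genes of the list with the highest mean level over all 4 libraries were not called, although in wild-type alone *Lrp1* lay above *Scarb2*: the lysosomal membrane protein *Scarb2* was at 84.2 and 83.5 against 83.3 and 83.9 CPM, and *Lgals3bp*, a secreted galectin-binding protein, at 413.0 and 417.6 against 428.0 and 443.9 CPM.

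Of 17 efferocytosis receptors and bridging molecules tested, 12 were called lower and none higher (70.6%), and the median log2-fold change was -1.8. *C1qa*, *C1qb* and *C1qc*, the chains of complement C1q, which bridges dying cells to phagocytes and which were also counted among the macrophage markers, fell together with log2-fold changes of -2.79, -2.72 and -2.87. *Cd300a*, a receptor for phosphatidylserine, fell from 52.4 and 52.9 to 5.61 and 6.37 CPM (log2-fold change -3.14, edgeR adjusted p = 2.47e-12), and *Adgrb1*, the receptor BAI1, from 3.51 and 3.82 to 0.233 and 0.437 CPM. The integrin chains *Itgav* and *Itgb3*, which bind phosphatidylserine through MFG-E8 and are not restricted to macrophages, had log2-fold changes of 0.49 and 0.17, which became -0.08 and -0.4 with scaling on NK lineage genes. *Mfge8* itself was at 10.3 and 10.2 against 14.5 and 14.3 CPM, a log2-fold change of 0.49 that likewise became -0.08.

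The machinery downstream of these receptors is shared by many cell types. Of 22 genes of engulfment and cargo handling tested, 5 were called lower and none higher (22.7%), and the median log2-fold change was -0.02. *Rac1*, the GTPase that drives closure of the phagocytic cup, was at 455.9 and 446.3 against 451.1 and 457.3 CPM, and *Ucp2*, a mitochondrial carrier used by engulfing phagocytes, at 690.7 and 712.3 against 714.1 and 729.3 CPM. Within the DOCK exchange factors, *Dock1*, the partner of ELMO in phagocytes, fell from 4.61 and 5.29 to 0.517 and 0.437 CPM (log2-fold change -3.36, edgeR adjusted p = 1.51e-07), whereas *Dock2*, its counterpart in lymphocytes, was at 709.5 and 706.9 against 868.9 and 878.1 CPM, a log2-fold change of 0.3 that became -0.27 when scaled on NK lineage genes. The remaining 4 genes called lower act in handling the sterols of ingested cells: *Nr1h3*, which encodes the oxysterol receptor LXRα (log2-fold change -3.26), the cholesterol exporters *Abca1* (-1.9) and *Abcg1* (-1.12), and the lipid-sensing receptor *Pparg* (-1.16).

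Of 12 genes in a list drawn around *Cd14* and TLR4, 4 were called lower and none higher (33.3%), and the median log2-fold change was -0.43. The list also holds *Cd180* and *Ly86*, a related receptor pair rather than partners of CD14, and both were among the 4 called. *Lbp*, which delivers lipopolysaccharide to CD14, was called lower at 2.45 and 1.65 against 0.155 and 0.0936 CPM. *Cd180* fell from 69.2 and 61.2 to 6.13 and 6.96 CPM and its partner *Ly86* from 38.8 and 38.5 to 4.55 and 5.68 CPM (edgeR adjusted p = 7.25e-12 and 4.34e-11). The receptor *Tlr4* itself, at 26.3 and 24.8 against 14.4 and 13.9 CPM, and its partner *Ly96* (MD-2), at 3.61 and 3.69 against 2.33 and 2.28 CPM, had log2-fold changes of -0.85 and -0.66, short of the fold threshold. With scaling on NK lineage genes *Tlr4* became -1.42 and *Ly96* -1.23, and both were called lower. The shared adaptors *Myd88* (-0.2), *Irak1* (0.13) and *Traf6* (0.1) were not called, and the last 2 became -0.44 and -0.47 with scaling on NK lineage genes.

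All 8 of the myeloid C-type lectins tested, relatives of the mannose receptor by their sugar-binding fold, were called lower, and the median log2-fold change was -2.96. The beta-glucan receptor *Clec7a* (Dectin-1) fell from 69.6 and 67.4 to 10.3 and 10.2 CPM, a log2-fold change of -2.74, while *Clec12a*, *Clec4a2*, *Clec4n* and *Clec4e* had log2-fold changes of -3.29, -3.44, -3.5 and -1.63. Of 10 tested relatives by gene family, 4 were called lower, with a median of -0.65. The sets above share some genes and were, like the members, put together with results of these libraries known, so their counts are not independent support.

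**Figure D4:**
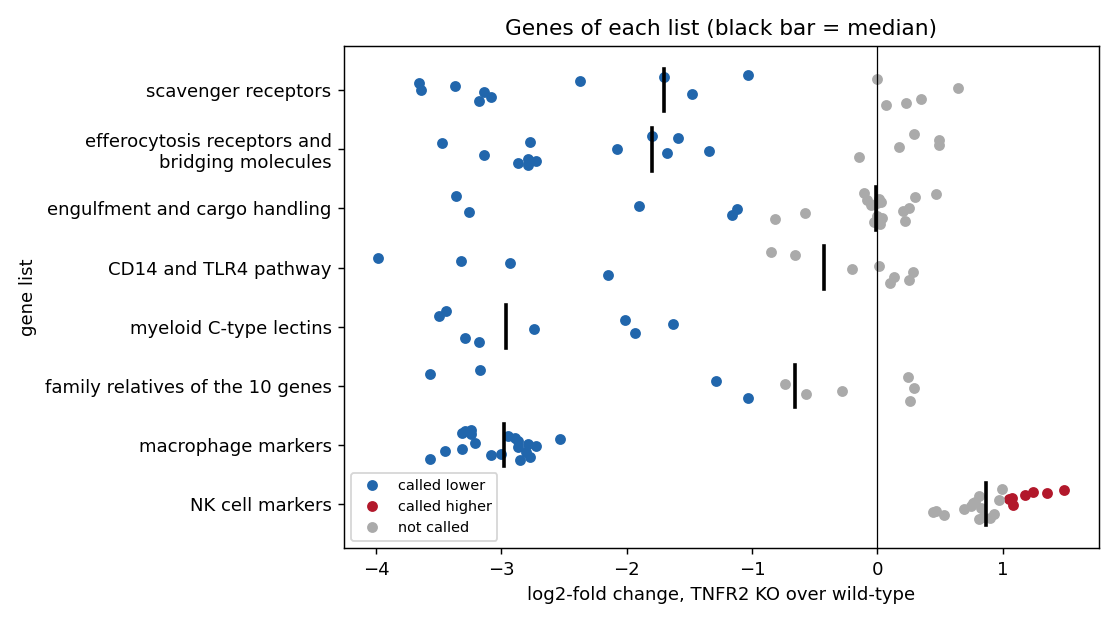
Log2-fold change (TNFR2 KO over wild-type) of every tested gene in 8 lists; each point is a gene, blue if called lower, red if called higher and grey if not called, and the black bar is the list's median. Macrophage markers and C-type lectins are all blue, with medians of -2.98 and -2.96, whereas engulfment and cargo handling is mostly grey around its median of -0.02 and the NK cell markers lie on the other side of 0.

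The difference between the spleen pools, which played no part in choosing the genes, was tested with genotype in the model. No member was called different between pool 1 and pool 2 by edgeR's quasi-likelihood test (0 of 10, largest absolute log2 difference 0.11, every adjusted p 1.0), where 32 of 13822 genes were, or 0.232%. At so low a share over all genes, 0 of 10 is not a result about the members. At an unadjusted p under 0.05 there were 0 members and 653 genes, and DESeq2 found 0 members and 7 genes at an adjusted p under 0.05 and 0 members and 78 genes unadjusted. The fitted differences ran from -0.11 for *Marco* to 0.06 for *Cd5l*. Within wild-type the pools differed by -0.13 (*Msr1*) to 0.11 (*Cd14*) on the log2 scale. Within TNFR2 KO the spread was wider, from -0.47 for *Marco* and -0.42 for *Cd14* to 0.33 for *Mrc1*. These genes are among the members with the fewest counts in TNFR2 KO. *Mertk*, at 108 and 89 counts in TNFR2 KO, differed by only -0.01 there, and the part of low counts was not tested. This fit leaves 1 residual degree of freedom and each pool is a mixture of 3 mice, so the variation between single mice was not measured.

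**Figure D5:**
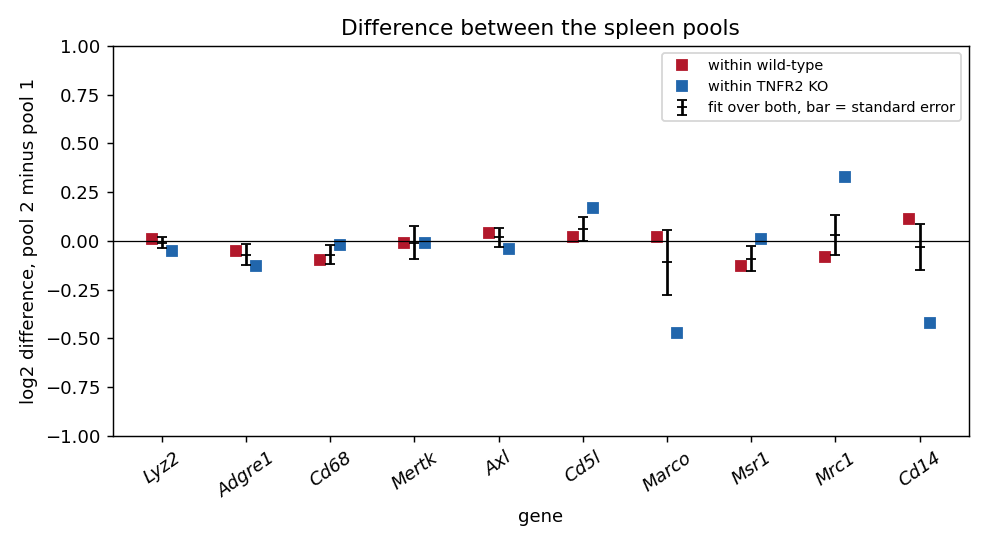
Log2 difference between the spleen pools (pool 2 minus pool 1) of each of the 10 genes, within wild-type (red), within TNFR2 KO (blue) and fitted over both (black, with standard error). The red points stay between -0.13 and 0.11, and the blue points of *Marco* (-0.47), *Cd14* (-0.42) and *Mrc1* (0.33) lie farthest from 0.

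Levels of different genes were compared as CPM per kb of the median transcript length. In wild-type the order was *Lyz2* (588.6), *Axl* (156.4), *Adgre1* (104.1), *Cd68* (94.4), *Msr1* (43.9), *Cd5l* (32.1), *Cd14* (17.3), *Mertk* (10.1), *Marco* (8.38) and *Mrc1* (6.93), and no neighbours overlapped between their duplicates. In TNFR2 KO *Lyz2* again led at 85.3 CPM per kb, followed by *Cd68* at 30.0, *Axl* at 27.9 and *Adgre1* at 10.1, and *Mertk* came last at 0.791. *Marco* and *Mrc1*, at 1.01 and 0.926 CPM per kb in TNFR2 KO, overlapped. With the longest transcript in place of the median, 5 of 10 genes kept their wild-type rank: *Lyz2* remained first, while *Axl* moved behind *Cd68*, *Cd5l* and *Adgre1* at 25.3 CPM per kb. The isoform in use is not known from gene-level counts, and the wild-type order between *Lyz2* and *Cd14* depends on the length chosen. From *Cd14* down the wild-type order was the same with either length, whereas in TNFR2 KO the order after *Cd14* also changed.

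The genes whose profile over the 4 libraries came closest to the members' median profile, among 8760 genes, were *Gm21188*, *Rpl3-ps1*, *Marchf1*, *Cxcl10* and *Gatm*, at root mean square distances of 0.0315, 0.0453, 0.0518, 0.0527 and 0.0609 on the log2 scale. *Cxcl10*, an interferon-induced chemokine, was at 92.9 and 95.3 CPM in wild-type and 12.3 and 12.1 CPM in TNFR2 KO. *Rpl3-ps1* is a ribosomal protein pseudogene, whose reads may be shared with its parent gene. Over 4 libraries in 2 groups, such likeness amounts to little more than a similar fold change.

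Promoter windows of 250 bases before the RefSeq start (GRCm38.p6) were searched on both strands, for *Lyz2*, *Cd68*, *Mertk*, *Axl*, *Cd5l*, *Marco* and *Mrc1*. *Adgre1*, *Msr1* and *Cd14* had no entry. Myeloid genes are known to be controlled by PU.1, an ETS factor that binds purine-rich sites around the letters GAGGAA. These letters were in 5 of the 7 windows (*Axl*, *Cd5l*, *Cd68*, *Marco* and *Mrc1*) and in 23.3% of 32851 windows of all genes. The longer GAGGAAGT, which contains them, was in 0 of 7 and in 2.44% of all, and the AP-1 letters TGANTCA were in 1 of 7, at 2 places in *Cd68*, and in 6.75% of all. CACGTG (an E-box) and TATAAA were in 0 of 7 and in 6.02% and 12.4% of all windows. The windows of *Cd68* and *Marco*, the members with the smallest fold change and the lowest wild-type CPM, are shown with GAGGAA in capitals. They lie at chr11:69666171-69666420 and chr1:120505025-120505274, both on the minus strand.
Cd68: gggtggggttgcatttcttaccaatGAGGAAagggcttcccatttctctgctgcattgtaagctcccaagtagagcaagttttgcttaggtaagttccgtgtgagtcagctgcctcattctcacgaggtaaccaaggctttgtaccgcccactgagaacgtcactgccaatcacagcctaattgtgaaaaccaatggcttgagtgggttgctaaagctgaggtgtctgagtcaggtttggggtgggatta
Marco: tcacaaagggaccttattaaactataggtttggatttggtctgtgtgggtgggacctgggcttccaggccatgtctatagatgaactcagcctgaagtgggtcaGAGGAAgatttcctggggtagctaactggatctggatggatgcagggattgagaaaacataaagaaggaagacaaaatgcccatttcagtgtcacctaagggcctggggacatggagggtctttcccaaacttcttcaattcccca
A match is a run of letters and not a bound site, and no binding was measured here.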

How the data were processed

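RNA of Ly49H+ NK cells was sequenced as stranded, poly-A selected, paired-end libraries. The authors trimmed the reads, assigned them to mouse transcripts of mm10 with kallisto (0.46.1, per the submitters' processing notes) and summed them per gene with Tximport, and the authors deposited these estimated counts, unscaled, by gene symbol. Which transcript annotation they used is not stated in the labels or methods. Kallisto divides reads that fit several transcripts, which can move counts between near-identical genes such as *Lyz1* and *Lyz2*.

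Estimated counts were rounded. A row without a gene name (0.0559% to 0.0728% of counts) was left out. Genes passing filterByExpr (13822) were scaled by TMM and tested with the quasi-likelihood test of edgeR 4.0.16 (R 4.3.3) in a model of genotype alone, and p-values were adjusted by Benjamini-Hochberg over all of them. A call needs an adjusted p under 0.05 together with a log2-fold change (TNFR2 KO over wild-type) above 1 or below -1. The edgeR test gives no standard error, so the standard errors printed here are approximate. Each is the absolute log2-fold change divided by the square root of the test's F statistic. For 2 against 2 libraries, an exact two-sided permutation test of a single value cannot go below p = 0.333. Duplicates differed by more than counting noise (mean chi-square per gene 3.27 and 3.47). As the sample descriptions in the labels tie same-numbered libraries to the same spleens, the numbers pair the samples; after subtracting group means, such libraries correlated at 0.0487 across genes. Alternatives were a replicate block, other scalings (DESeq2 size factors, library size, upper quartile, NK lineage genes), the low-count filter (none, or at least 10 CPM on average), DESeq2 1.42.0, transcript length, and each library left out in turn.

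Positions, lengths and shared sequence come from GENCODE M21 (GRCm38, which is mm10) and promoters from RefSeq.

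The 10 genes and all lists were chosen with earlier results of these data known. Beside the 10 genes, the text names the targeted gene, *Ptprc*, *Lyz1*, the 3 most abundant genes of each list, the 2 called genes with the largest fall and rise, and the 5 nearest profiles. Lists of other cell types are given as totals. The dendritic cell, monocyte and stromal genes named beside those totals were picked after their values were seen. *Tyro3*, *Gas6*, *Pros1*, *Mfge8*, *C1qb*, *C1qc*, *Tlr4*, *Ly96*, *Ly86*, *Abca1*, *Abcg1*, *Pparg*, *Cd5*, *Cd6*, *Klra8*, *Klrb1c* and *Ncr1* were added after their values were seen.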

Additional observations from a re-analysis of the deposited data

How the results depend on the processing

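No member changed direction under any alternative. Of 916 values recomputed under an alternative, 844 kept their direction and, where tested, their side of the threshold, and also stayed within 1.5 times for a count or within the error for a value given without a test (1 standard error for a member). Scaling on NK lineage genes moved the median of all genes to -0.57 and that of the members to -3.54, a difference of -2.97 as with TMM factors; it called 2713 genes lower and 52 higher (98.1% of calls lower, against 88.3%) and 68 between the pools, and it turned *Adgre5* (-0.33), *Dock2* (-0.27), *Irak1* (-0.44), *Itgav* (-0.08), *Itgb3* (-0.4), *Lgals3bp* (-0.5), *Mfge8* (-0.08), *Ptprc* (-0.07, from 0.5), *Rac1* (-0.56), *Traf6* (-0.47), *Tyro3* (-0.28) and *Ucp2* (-0.53). *Tlr4* (-1.42), *Ly96* (-1.23), *Lamp2* (-1.31) and *Cd6* (-1.14) passed the fold threshold with scaling on NK lineage genes and were called lower. That scaling called 7 engulfment genes, 6 genes of the TLR4 list and 6 relatives lower. With library size alone *Rac1* became -0.05 and *Ucp2* -0.02. A mean of at least 10 CPM leaves fewer genes and drops *Marco*. It called 424 genes lower, 56 higher and 13 between the pools, and turned *Rac1* (-0.03). Of the lists it called 3 scavenger receptors, 5 efferocytosis genes, 2 engulfment genes, 2 genes of the TLR4 list, 5 lectins and 2 relatives lower. *Scarb2*, near 0, became 0.0 with upper-quartile scaling and without a filter, and 0.01 without 1 library. The pool test called 100 genes without a filter and 7 with DESeq2. Longest transcripts kept 5 of 10 ranks. The causes were not tested.

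With the replicate block, which pairs libraries of the same spleens, 1616 genes were called lower and 214 higher, the members' median stayed at -2.98, and no call named in the text changed. Leaving out each library in turn gave 1431 to 1659 genes lower, 208 to 219 higher and a members' median of -3.01 to -2.91; *Lyz1* lost its call without wild-type replicate 2 (log2-fold change -2.66, edgeR adjusted p = 0.0648). *Marco* in TNFR2 KO, at 52 and 31 counts, is the member that depth limits most.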

Other observations

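*Ptprc*, the gene of CD45, by whose alleles the cells were sorted, was at 2373.9 and 2305.7 CPM in wild-type and 3310.7 and 3292.3 CPM in TNFR2 KO. *Ncr1*, the gene of the NK receptor NKp46, was at 258.3 and 255.5 against 511.3 and 510.5 CPM.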
